A study of Mus musculus with 8 samples.

Results

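The intrinsic apoptosis pathway was followed through 9 of its genes in migrating mouse germ cells: Xiap, the anti-apoptotic genes Bcl2, Bcl2l1 and Mcl1, the effector Bak1, the BH3-only genes Bcl2l11, Bbc3 and Pmaip1, and Apaf1. They are 9 of the 19938 genes that had an array probe with a single gene symbol. Each of the 9 has 1 such probe, and no filter on low values was applied, so all 9 were measured. Xiap was picked because its level was higher in mutants than in WT on these same arrays, and the others were picked by name from the pathway. The contrast of genotypes therefore describes these genes and is not a test of them. No caspase is among the 9. Caspases were measured as part of wider lists of pathway genes, given after the members.

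The arrays measured RNA of primordial germ cells (PGCs), the founder cells of sperm and eggs, that had been sorted from individual embryos at embryonic day 9.5. The 4 mutants carried the Y324C change on both copies of Ror2, the gene of a Wnt5a receptor, and had 24, 22 to 23, 23 and 21 to 22 somites for embryos 1 to 4. The 4 WT embryos were Ror2+/+ and had 25, 25, 22 and 21 somites. All came from crosses of Ror2 heterozygotes on a mixed strain background, in which the father was homozygous for the Oct4-ΔPE reporter, so both groups carried the green fluorescent label that guided the sort. The mutation was present in every cell of the embryo and not in PGCs alone. Each embryo gave 1 array, so the embryo is the replicate, and precision is limited by there being 4 arrays in a group.

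Intrinsic apoptosis is decided at the outer membrane of mitochondria. BH3-only proteins respond to stress or to the loss of survival signals, bind the anti-apoptotic proteins Bcl2, Bcl-xL (from Bcl2l1) and Mcl1, and so free the effectors Bax and Bak to open the membrane. Cytochrome c then leaves the mitochondria and assembles Apaf1 into the apoptosome, which activates caspase-9 and starts the caspase cascade. XIAP binds and inhibits caspases. Mouse PGCs that leave their route or lack Kit ligand die by apoptosis, and Bcl-x and Bax are known to act in opposite ways on their survival.

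Xiap lies on the X chromosome. The 250 bases before one of its 3 RefSeq transcription starts (GRCm38.p6, chrX:42068148-42068397, plus strand) are shown because Xiap is the gene the set was built around, with each CG dinucleotide in capitals. CG reads the same on both strands.
Xiap upstream window: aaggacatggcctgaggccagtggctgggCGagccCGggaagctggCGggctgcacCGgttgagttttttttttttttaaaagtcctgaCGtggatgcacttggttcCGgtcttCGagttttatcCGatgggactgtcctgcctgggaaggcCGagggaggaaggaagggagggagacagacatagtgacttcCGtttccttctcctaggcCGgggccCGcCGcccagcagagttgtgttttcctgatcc
This window was picked as the Xiap window with the most CG dinucleotides. It holds 13, and the windows before the other Xiap starts hold 1 each. Of 32851 such windows in the RefSeq table, 31.5% hold at least 13. The arrays measured transcripts and not this region.

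The sort was checked with marker genes. All 12 PGC markers, among them Pou5f1, Dppa3, Prdm1 and Nanos3, had a mean level above the 75th percentile of all genes. The mean of these markers per array was 9.84 to 9.98 in mutants and 9.70 to 10.002 in WT (log2). Primitive erythroid markers had means of 4.79 to 4.98 in mutants and 4.73 to 5.44 in WT, and none of the 7 measured lay above the 75th percentile. Macrophage markers had means of 4.79 to 5.01 in mutants and 4.77 to 5.34 in WT, and 0 of 8 lay above it. Of the hindgut markers, 3 of 8 did, with means of 6.60 to 6.99 in mutants and 6.51 to 7.18 in WT. Probes differ in brightness, so these ranks are rough. WT 3 stood apart: it was the lowest array for PGC markers and the highest for erythroid, macrophage, trunk mesenchyme, neural tube and tailbud progenitor markers. Mutant 4 and WT 3 were also the arrays of high Xist, at 6.31 and 7.07, while no other array exceeded 4.11, and of low Y-linked genes. Each group thus held 1 embryo of the female pattern.

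Xiap, the caspase inhibitor, was higher in every mutant embryo than in any WT embryo. Its log2 intensity was 7.48, 7.42, 7.69 and 7.25 in mutants 1 to 4, and 6.84, 6.61, 5.89 and 6.75 in WT 1 to 4. The groups did not overlap, and the lowest mutant lay 0.41 above the highest WT embryo. The means were 7.46 ± 0.18 in mutants and 6.52 ± 0.43 in WT (SD, n = 4 each), a difference of 0.94 ± 0.21 (SE, limma) or 1.91-fold. In sorted cells measured in bulk, a change in the share of cells that hold a transcript cannot be told apart from a change per cell.

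WT 3 set much of the spread of Xiap in WT. Without that array the difference was 0.73, the lowest of all 17 alternative settings, and it was 1.04 without WT 1, the highest. The high-Xist arrays gave the lowest Xiap value of each group, 7.25 in mutant 4 and 5.89 in WT 3. The same held for 6.77% of 739 X-linked genes and for 7.64% of 19108 genes of the other chromosomes except Y. Without both of these arrays the difference of Xiap was 0.80. The marker levels of WT 3 moved with its low Xiap value, and their part in it was not tested. These values describe the gene that was chosen for them. All mutant values lay above all WT values for 1.08% of the genes tested, and 2.52% did not overlap in either direction.

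**Figure D1:**
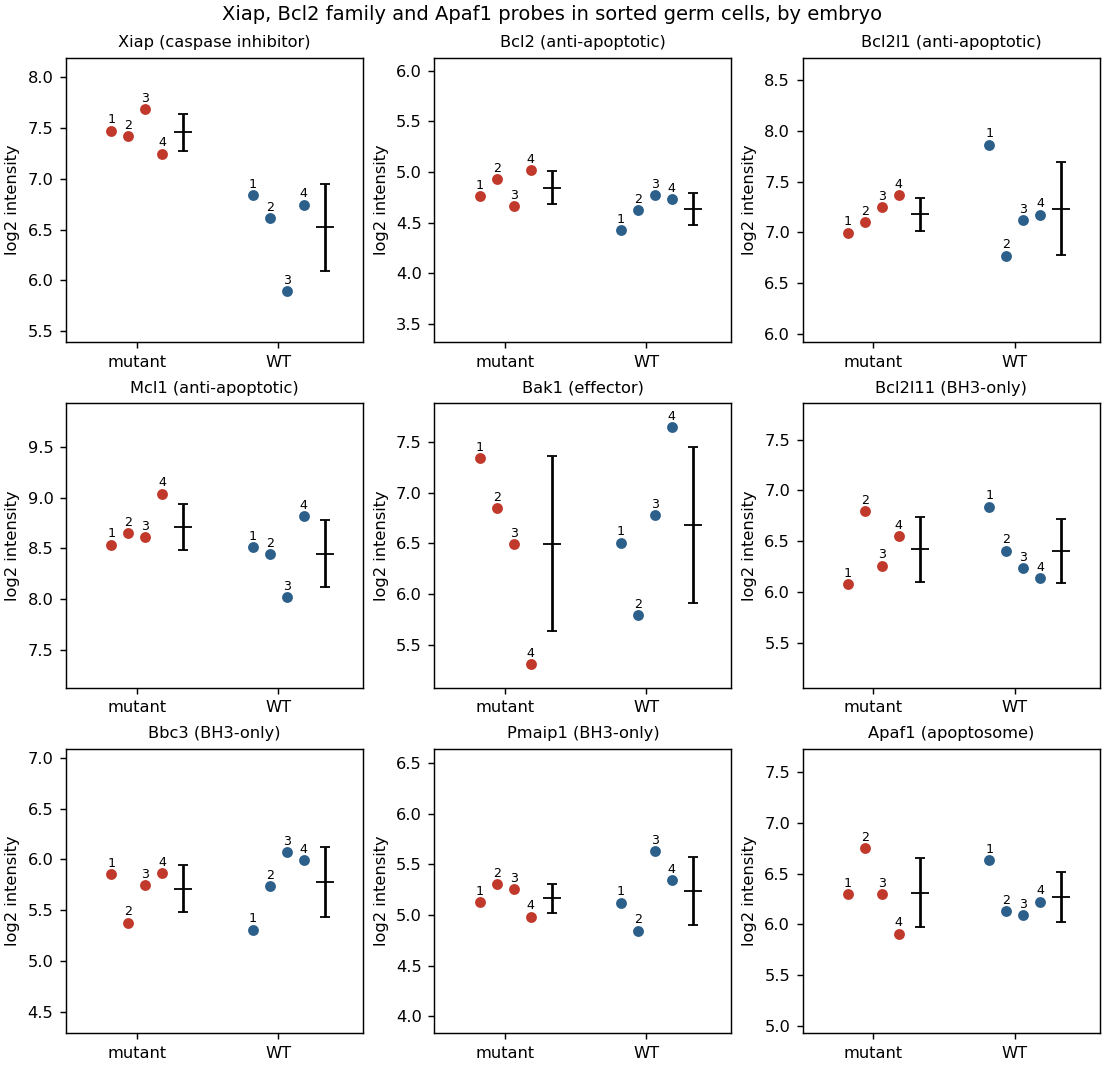
Log2 intensity of the 9 genes in each embryo, numbered by replicate, with mutants left and WT right; the black mark is the mean and SD of 4 embryos, and every panel spans the same number of log2 units. Xiap, chosen for being higher in mutants, separates the groups, with a gap of 0.41, and Bak1 has the widest spread within both.

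The anti-apoptotic members hold the effectors in check. Mcl1, a short-lived member that binds Bak and Bim, had values of 8.54, 8.65, 8.61 and 9.04 in mutants 1 to 4, and 8.51, 8.44, 8.01 and 8.81 in WT 1 to 4. All mutants lay above 3 of the 4 WT embryos, but WT 4 lay above 3 mutants, so the groups overlapped. The difference was 0.26 (95% interval -0.15 to 0.68). Mutant 4 was the highest and WT 3 the lowest array for Mcl1, and without this pair the difference was 0.01.

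Bcl2, the founding member of the family, had values of 4.76, 4.93, 4.66 and 5.02 in mutants 1 to 4, and 4.42, 4.62, 4.77 and 4.73 in WT 1 to 4. The groups overlapped, and the difference was 0.21 (95% interval -0.10 to 0.52). It stayed above 0 in the 16 alternative settings that gave a value, from 0.14 to 0.29, though some of these settings cannot move it. The mean of Bcl2 over all arrays, 4.74, lay below the median of all gene means, 5.61, and how far it lay above background cannot be assessed from these values.

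Bcl2l1 encodes Bcl-xL, which is known to support the survival of mouse PGCs. Its values were 6.997, 7.10, 7.24 and 7.37 in mutants 1 to 4, and 7.87, 6.77, 7.12 and 7.18 in WT 1 to 4. WT embryos held both the highest and the lowest value, and the SD was 0.16 in mutants and 0.46 in WT. The means were nearly equal, at 7.18 in mutants and 7.23 in WT, with a difference of -0.05 (95% interval -0.53 to 0.42). Its sign turned when WT 1, the highest array, was left out (0.16).

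Bak1 encodes one of the proteins that open the mitochondrial membrane. Its values were 7.34, 6.85, 6.49 and 5.31 in mutants 1 to 4, and 6.51, 5.79, 6.78 and 7.65 in WT 1 to 4. The groups overlapped from 5.79 to 7.34, and the 8 embryos spanned 2.34 log2 units. The means were 6.50 ± 0.86 in mutants and 6.68 ± 0.77 in WT (SD, n = 4 each), and the difference was -0.18 (95% interval -1.18 to 0.81). Its residual SD within groups, 0.82, was larger than that of 98.9% of all genes, whose median was 0.24. The sign of the difference was not stable: it ran from -0.48 without WT 2 to 0.24 without WT 3 and mutant 4 together.

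The BH3-only members link stress to the mitochondria. Bcl2l11 encodes Bim, which is induced when survival factors are withdrawn. It was at 6.07, 6.80, 6.26 and 6.55 in mutants 1 to 4 and at 6.84, 6.41, 6.23 and 6.14 in WT 1 to 4. The groups covered the same range, and the difference was 0.02 (95% interval -0.43 to 0.46). Bbc3 encodes Puma, a p53 target. It was at 5.86, 5.38, 5.75 and 5.87 in mutants 1 to 4 and at 5.31, 5.73, 6.07 and 5.99 in WT 1 to 4. All mutants lay within the range of WT, with a difference of -0.06 (interval -0.49 to 0.36). Pmaip1 encodes Noxa, another p53 target, which binds Mcl1. It was at 5.12, 5.30, 5.26 and 4.98 in mutants 1 to 4 and at 5.12, 4.85, 5.63 and 5.35 in WT 1 to 4. Here too the mutants lay within the range of WT, with a difference of -0.07 (interval -0.46 to 0.32). Mutant 2 and WT 1 were the highest arrays of their groups for Bcl2l11 and the lowest of their groups for Bbc3. Each of these differences changed sign in at least 1 alternative setting.

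Apaf1 forms the scaffold of the apoptosome. It was at 6.30, 6.75, 6.29 and 5.91 in mutants 1 to 4 and at 6.63, 6.13, 6.09 and 6.22 in WT 1 to 4. Mutants held both the highest and the lowest value, and the difference was 0.04 (95% interval -0.39 to 0.47). Among the 9 genes, 5 had a higher mean in mutants, including Xiap, which was chosen for this. The median difference of the 9 was 0.02. Over all 19938 genes 44.6% had a higher mean in mutants and the median was -0.02. In the limma fit over all genes, 0 of the 9 and 0 of 19938 genes had an adjusted p under 0.05, which is 0% of those tested. An unadjusted p under 0.05 was reached by 4.68% of all genes and, of the 9, by Xiap, which was chosen for it.

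The wider pathway was listed by role, with 67 genes in 9 lists, of which 58 were measured. Bax, Trp53, Cdkn1a, Ripk1, Naip1, Sept4 and 3 genes of the Bcl2a1 cluster were not analysed here. None of the 58 passed the limma test in either direction. Their median difference was -0.02, the same as over all genes, and 28, the chosen Xiap among them, lay above 0. That count was 37 after each array was centred on its median and 31 after quantile normalization, so no direction can be given. The median difference of all genes moved as well, to 0.037 after median centring and 0.009 after quantile normalization. The counts of single lists moved too: after median centring 4 of 5 antagonists and 5 of 8 BH3-only genes lay above 0, against 2 and 3 on the deposited values. Leaving out 1 array moved 20 of the 22 differences outside the 9 members that were named for having the smallest p of a list by over 1.5 times and turned the sign of 6, those of Naip5, Endog, Casp9, Cycs, Casp2 and Casp12. Besides Xiap, an unadjusted p under 0.05 was reached by 2 genes of the 49 that are not members: Mdm4, which was higher in mutants, and Bcl2l2, which was lower. Over all genes, 2.72% had such a p with a higher and 1.96% with a lower mean in mutants.

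Among the inhibitors of apoptosis, the family of XIAP, 4 of 9 lay above 0, with a median difference of -0.06. These counts include Xiap itself, which was chosen for being higher in mutants. Birc2, encoding cIAP1, was at 7.13 ± 0.20 in mutants and 6.85 ± 0.38 in WT (SD, n = 4 each) and differed by 0.27 ± 0.19 (SE), or by 0.12 both without WT 3 and as the mean of its 2 probes. Naip2 and Naip5, which detect bacterial proteins, differed by -0.26 ± 0.17 and -0.25 ± 0.32, and that of Naip5 was 0.13 without WT 1. Birc5, encoding survivin, a protein of dividing cells, differed by -0.13, with an interval from -0.54 to 0.28. Apart from Xiap, the differences of this list ran from -0.26 to 0.27. Of the genes for proteins that act against XIAP or promote death on release from mitochondria, 2 of 5 lay above 0. The median was -0.02, the value of Xaf1. Htra2, a protease that binds XIAP, differed by -0.30 ± 0.17, Aifm1, an X-linked flavoprotein that moves to the nucleus in dying cells, by 0.36 ± 0.27, and the nuclease gene Endog by 0.06 ± 0.17. Without WT 3, Aifm1 differed by 0.14. Diablo, whose product Smac displaces caspases from XIAP, differed by -0.03.

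The anti-apoptotic list had 2 of 5 measured genes above 0 and a median of -0.05. Bcl2l2, encoding Bcl-w, which spermatogenesis needs, had values of 5.39, 5.15, 5.76 and 5.67 in mutants 1 to 4, and 5.997, 5.85, 5.75 and 5.96 in WT 1 to 4. The groups overlapped by a narrow margin at mutant 3 and WT 3. Bcl2l2 differed by -0.40 ± 0.16 (SE), with a limma adjusted p of 0.973. Bcl2l10 differed by -0.33 ± 0.19 at low levels, with means of 3.25 in mutants and 3.58 in WT. In the effector list Bok differed by -0.18 ± 0.16. The BH3-only list had 3 of 8 above 0 and a median of -0.04. Bid, which caspase-8 cleaves, differed by 0.38 ± 0.20, Bad, which survival kinases hold inactive, by 0.19 ± 0.16, and Bmf by -0.29 ± 0.24. These were 0.20 for Bid without mutant 1, 0.10 for Bad without mutant 4 and -0.04 for Bmf without WT 4.

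Of the 8 caspases measured, 5 lay above 0 with a median of 0.03, and 7 did after median centring and after quantile normalization. Both scalings also raised the median difference of all genes, so the higher count is not particular to caspases. Casp9, the caspase of the apoptosome and a target of XIAP, was at 6.18 ± 0.14 in mutants and 6.26 ± 0.22 in WT (SD, n = 4 each), and its 95% interval ran from -0.41 to 0.25. Casp2, which takes part in the response to DNA damage, was at 7.52, 7.55, 7.66 and 7.31 in mutants 1 to 4 and at 8.11, 7.38, 7.29 and 6.21 in WT 1 to 4. Its SD was 0.14 in mutants and 0.78 in WT, and the difference was 0.26 ± 0.32 (SE), or -0.08 without WT 4. Casp12, a caspase of the inflammatory subfamily, differed by 0.05 ± 0.12 at a low level. Cycs, the gene for cytochrome c, had means of 10.25 in mutants and 10.21 in WT, a difference of 0.04 ± 0.21.

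In the death receptor pathway, which starts at the cell surface, 4 of 8 genes lay above 0 and the median was -0.01. Cflar, whose product c-FLIP blocks caspase-8, had values of 5.39, 5.24, 5.27 and 5.50 in mutants 1 to 4, and 6.16, 5.34, 7.26 and 5.25 in WT 1 to 4. The spread lay in WT, where WT 3 and WT 1 exceeded all mutants, and the difference was -0.65 ± 0.37 (SE). It was -0.23 without WT 3, and -0.43 for the mean of the 3 Cflar probes. Tnfrsf1a, a receptor for tumour necrosis factor, differed by -0.30 ± 0.23 and its adaptor Traf2 by 0.20 ± 0.19. Of the p53 regulators and targets, 7 of 14 lay above 0 and the median was -0.0011. Mdm4, an inhibitor of p53, differed by 0.47 ± 0.21, Trp53inp1, a p53 target, by 0.42 ± 0.22, and Phlda3, a p53 target that restrains Akt, by -0.29 ± 0.20. Without WT 4, Mdm4 differed by 0.28 and Trp53inp1 by 0.25. Mdm2, the ubiquitin ligase for p53, differed by -0.10. All genes of these lists had a limma adjusted p of at least 0.973.

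**Figure D2:**
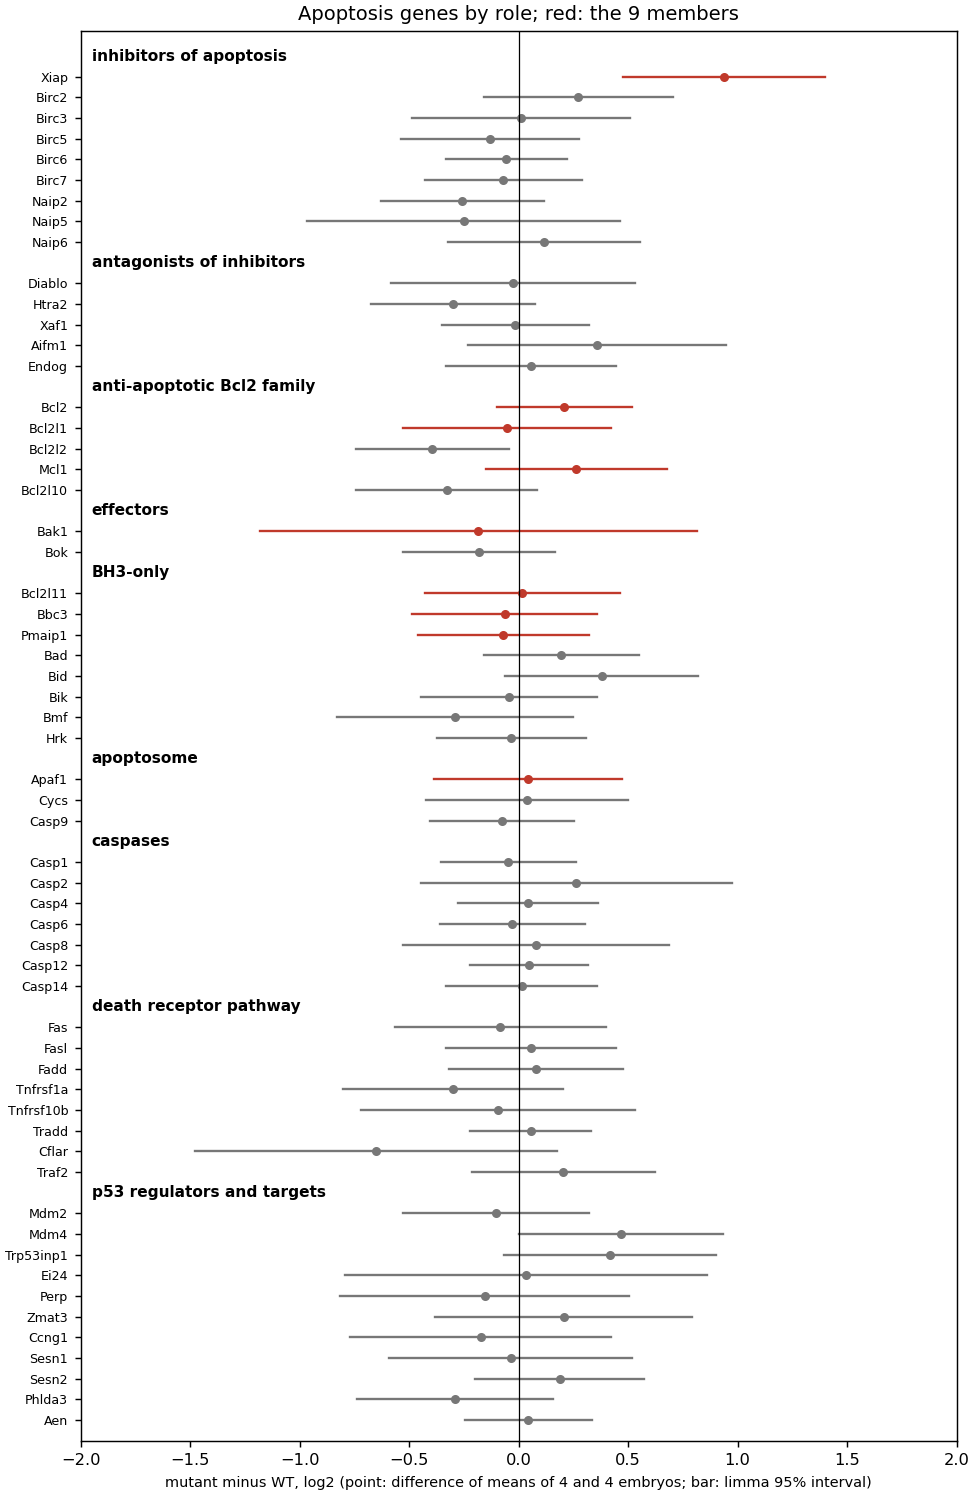
Mutant minus WT difference in log2 units for the 58 measured pathway genes, each drawn once under its first list, with limma 95% intervals; the 9 members are red and the others grey. Xiap, chosen for being higher in mutants, lies at 0.94, and the differences of the rest run from -0.65 to 0.47. Over all genes they run from -1.91 to 2.87. Bak1 has the widest interval of the members.

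Embryos at this age are staged by their somites, so a slope over somite number was fitted, holding genotype in the model. The slopes of the 9 genes ran from -0.11 to 0.08 log2 units per somite. Those of Bak1, Bcl2l11, Bcl2l1, Bbc3 and Pmaip1 combined slopes of opposite sign in the groups. For Bak1 and Bcl2l11 these are given below. In mutants and WT they were -0.13 and 0.04 for Bcl2l1, 0.02 and -0.14 for Bbc3, and 0.05 and -0.13 for Pmaip1. Xiap had 0.08 ± 0.07 log2 units per somite (SE), Apaf1 0.07 ± 0.07, Bcl2l11 0.05 ± 0.07 and Bcl2l1 0.01 ± 0.08. Bak1 had -0.11 ± 0.16, Bbc3 -0.10 ± 0.06, Pmaip1 -0.09 ± 0.06, Bcl2 -0.07 ± 0.04 and Mcl1 -0.05 ± 0.07. The sign turned with 1 array left out for Bcl2l1, Bcl2l11, Mcl1 and Bak1. None of the 9 passed the limma test of the slope, and 0% of all genes passed it. An unadjusted p under 0.05 was reached by 0 of the 9 and by 9.74% of all genes. The slope of Xiap was 0.22 without WT 4 and -0.0047 without WT 3 and mutant 4. With somite number in the model, the difference of Xiap between genotypes was 0.98.

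The slopes of Bak1 ran in opposite directions in the groups. Ordered by somite number, mutants had 5.31 at 21 to 22 somites, 6.85 at 22 to 23, 6.49 at 23 and 7.34 at 24. WT embryos had 7.65 at 21 somites, 6.78 at 22, and 6.51 and 5.79 at 25. The slope was 0.75 log2 units per somite in mutants and -0.33 in WT. The youngest mutant had the lowest value and the youngest WT embryo the highest. The difference of slopes, mutant minus WT, was 1.08 ± 0.22 (SE), with a limma adjusted p of 0.856 over all genes, so it did not pass. This fit was added after the values of Bak1 had been seen. The difference was 0.73 without mutant 4, the lowest of its 10 alternative settings, and 1.22 without mutant 1, the highest. By the same fit 0% of all genes passed, and 4.52% had an unadjusted p under 0.05, as had Bak1 and Bcl2l11 of the 9. Bcl2l11 had slopes of -0.22 in mutants and 0.12 in WT, a difference of -0.35 ± 0.15, and the other 7 genes had differences between -0.18 and 0.18, none of which passed.

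**Figure D3:**
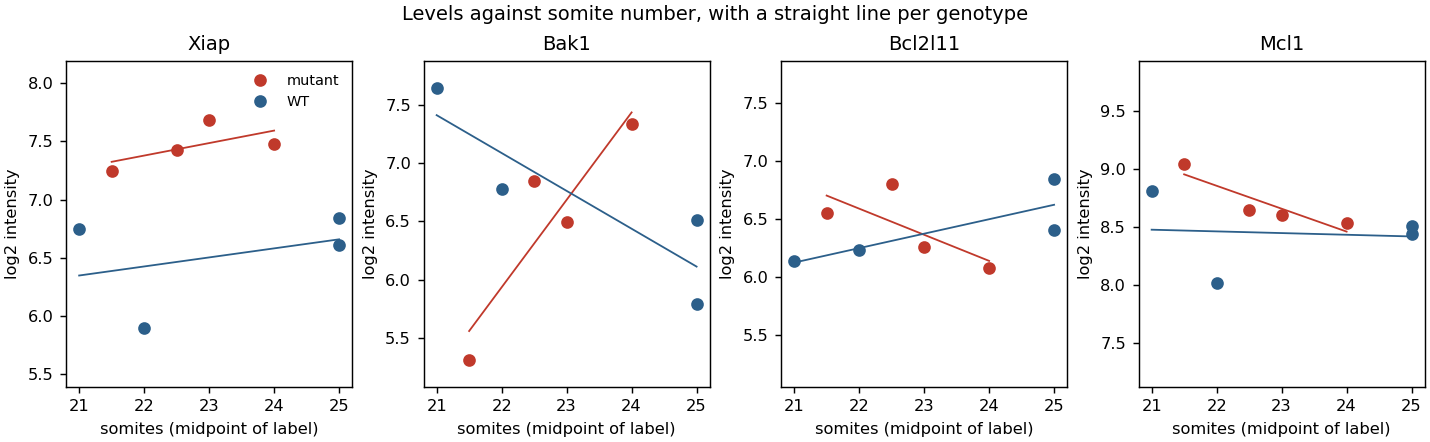
Log2 intensity against somite number (midpoint where the label gives a range) for Xiap, Bak1, Bcl2l11 and Mcl1, with 1 point per embryo and a straight line per genotype. All mutant points of Xiap lie above all WT points, and the lines of Bak1 cross, with slopes of 0.75 in mutants and -0.33 in WT.

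Of the wider pathway, 7 of the 49 genes outside the 9 had an unadjusted p under 0.05 for the slope, 5 positive and 2 negative. Over all genes this was 9.74%, with 1000 positive and 942 negative slopes. The steepest in the lists above was Casp2 at 0.27 ± 0.08 log2 units per somite (SE, limma adjusted p = 0.428). Naip5 had 0.23 ± 0.09, Diablo 0.18, Mdm4 0.16 ± 0.06 and Bid 0.14 ± 0.06. Casp8, the caspase that death receptors activate, had -0.20, and Fasl, the ligand of the receptor Fas, had -0.12. In WT embryos, Casp2 was at 6.21 at 21 somites, 7.29 at 22, and 8.11 and 7.38 at 25, and its slope was 0.13 without WT 4. Without that array the slope of Mdm4 was 0.09, and without WT 1 that of Naip5 was 0.08.

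The genes whose values followed Xiap most closely were sought among 9605 genes of above-median level. Likeness was the mean absolute difference between the log2 values of a gene and of Xiap over the 8 arrays, each centred on the mean of its gene, and its median over all compared genes was 0.48. The 5 closest were Pld3 at 0.156, Pdcd4 at 0.159, Iftap at 0.169, Exosc9 at 0.171 and Nudt19 at 0.174. Pld3 is a lysosomal nuclease of the phospholipase D family, Pdcd4 an inhibitor of translation initiation, and Exosc9 a subunit of the RNA exosome. WT 3 was the lowest array for each of the 5, as it was for Xiap. Mutant means exceeded WT means by 0.74 for Pld3, 0.82 for Pdcd4, 0.95 for Iftap, 0.61 for Exosc9 and 0.61 for Nudt19. The groups did not overlap for Pld3, Pdcd4 and Iftap. The genes were picked for this likeness, which includes the difference between genotypes and the low value of WT 3, and all values share the same 8 arrays.

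**Figure D4:**
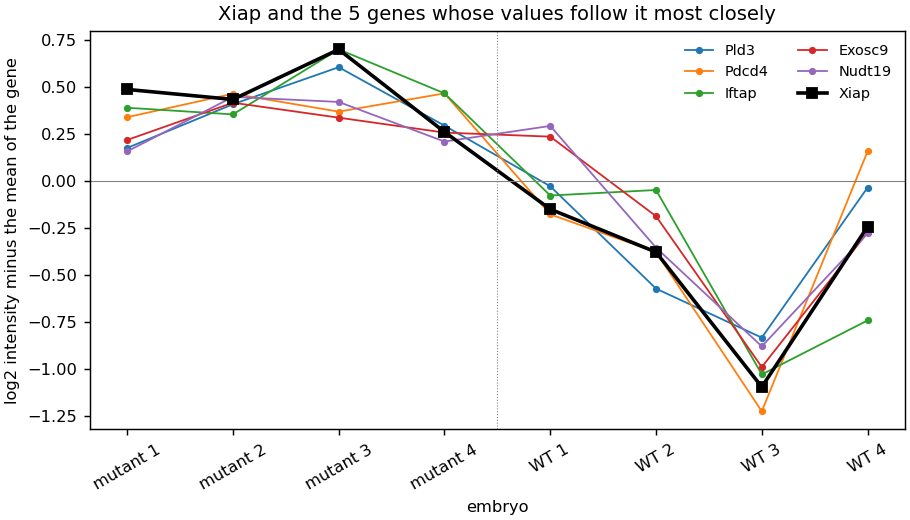
Log2 intensity minus the mean of each gene in the 8 embryos, for Xiap (black squares) and the 5 genes whose values lay closest to it; the dotted line parts mutants, left, from WT, right. All 6 genes were lowest in WT 3, and the 5 were picked for following Xiap, which includes this low value.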

How the data were processed

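RNA of PGCs sorted from single embryos was amplified, labelled with biotin and hybridised to arrays, per the labels' protocols. The deposited table holds 1 log2 value per probe and array for 35557 probes. The log2 scale was read from the range of the values, since the table names no unit, and the labels and the table state neither background correction nor normalization. Array medians ran from 5.37 to 5.58, and the values were used as the authors deposited them. The platform's annotation gave 21789 probes a single symbol, 1621 several and the other 12147 none. For 999 genes with several probes, the probe of highest mean was taken.

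Tests used limma 3.58.1 under R 4.3.3 (lmFit, then eBayes, with Benjamini-Hochberg adjustment over 19938 genes, threshold 0.05), for mutant minus WT without covariates and for the somite slope with genotype in the model. Scripts were checked on simulated data. SE and 95% intervals are from limma, and SD is over embryos. Promoter sequence and its coordinates are from RefSeq (GRCm38.p6); the sources name no build for the probe annotation.

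The members and lists were chosen with earlier results of these data known. The 9 members were always described. From each list the 3 other genes of smallest unadjusted p were named, since none passed. Birc5, Diablo, Mdm2, Casp8 and Fasl were named after their values were seen. Some items are not reported here.

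Replicate numbers were not treated as pairs of embryos in the main fits. Deviations of same-numbered embryos from their group means correlated at -0.05, 0.04, -0.19 and 0.10. These values show no strong shared effect, but they cannot tell whether embryos were handled in pairs.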

Additional observations from a re-analysis of the deposited data

Results flagged for a closer look

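Of 72 groups of 4 embryos, from 36 of the named genes, 2 held an embryo that stood apart by Dixon's criterion, where chance gives about 1 in 20. Birc5, Diablo, Mdm2, Casp8 and Fasl were not among the genes checked. Of these, Mdm2 was at 8.80 in WT 4, above the 7.95 to 8.02 of the remaining WT embryos. Htra2, the protease that binds XIAP, was at 6.85 in WT 4, below the 7.41 to 7.51 of the remaining WT embryos. Bmf, a BH3-only gene, was at 7.71 in WT 4, above the 6.62 to 6.80 of the remaining ones. None of the 9 members held such an embryo in either group.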

How the results depend on the processing

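The count of genes past the adjusted threshold for mutant minus WT was 0 in all 17 alternative settings, with 538 (genes above the median level only) to 1715 (without WT 1) at an unadjusted p under 0.05, against 934 as reported. The difference of Xiap ran from 0.73 to 1.04. Leaving out arrays could not turn its sign, since Xiap was chosen for being higher in mutants and its groups did not overlap. Bcl2 and Mcl1 also kept their sign throughout, and the other 6 members did not. Some settings cannot move the difference of a member, so they add nothing to this. These are the replicate block, the changed eBayes step, the mean of all probes and the restriction to genes above the median level. The count of genes whose groups do not overlap was 503 as reported and 276 among genes above the median level. It was 874 to 1889 with 1 array left out and 1868 without WT 3 and mutant 4. For the same genes, leaving out arrays can only raise this count, and the rise differed with the array left out. With the replicate number as a block, 0 genes passed. Such a block cannot change a difference when each replicate number has 1 array per group, so that of Xiap stayed at 0.94. For the somite slope, 0 genes passed as reported, 0 to 2 with 1 array left out, 5 without WT 3 and mutant 4, and 1 with the high end of the somite range, none of them a pathway gene; the cause was not tested. At an unadjusted p under 0.05 the slope count was 1942 as reported and 1046 among genes above the median level, where fewer genes were tested. The number of arrays, 8, limits every value.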
